A study of Homo sapiens with 12 samples.

Results

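Heme breakdown and iron handling were described in HT29 cells by 10 genes, namely HMOX1, BLVRA, BLVRB, FTH1, FTL, NCOA4, TFRC, SLC40A1, FECH and ABCB6. These were chosen by function, with earlier results of these data known. They were matched by symbol to the Ensembl IDs of the count table, which held 60675 gene IDs. All 10 were found, and all 10 were among the 15374 genes that passed the filter on low counts and were tested. HT29 is an established line from a human colorectal adenocarcinoma, so the data come from a single line of transformed epithelial cells. The cells received vehicle (PBS with 2% DMSO) or a water extract of Aconitum carmichaeli Debeaux (ACD) for 24 h at a low dose of 20 µg/mL, a medium dose of 100 µg/mL or a high dose of 500 µg/mL, and each group had 3 libraries of bulk mRNA. By the paper's methods, the extract was also dissolved in PBS with 2% DMSO and then added to growth medium, so cells met DMSO below 2%. Groups follow the sample titles, which name ACD, although a longer note on the treatment speaks of Poria cocos instead. The labels do not say that the 3 libraries of a group came from separate cultures, so the p-values measure only the spread between these libraries, which may be technical.

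Heme oxygenase opens the heme ring and releases iron, carbon monoxide and biliverdin, which biliverdin reductase turns into bilirubin. The freed iron is stored in ferritin, a shell of heavy and light chains, or leaves the cell through ferroportin, while the transferrin receptor brings iron in and ferrochelatase inserts it into protoporphyrin to complete new heme. In most cells HMOX1 and the ferritin genes can be induced at the level of transcription by oxidants and electrophiles, with NRF2 as an activator and BACH1 as a repressor. In the colon, ferroportin lies on the basolateral side of the epithelium.

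Iron also acts on several of these genes after transcription. When iron is scarce, iron regulatory proteins bind a short hairpin in the RNA, the iron responsive element, which blocks translation where it lies in the 5′ UTR and protects the RNA from decay where it lies in the 3′ UTR. The hairpins are shown because they mark which of the 10 genes have a canonical transcript that matches the pattern of this element. The search asked for a C, a stem of 5 paired bases (G-U pairs allowed) and a loop of 6 bases reading CAGTGN or CAGAGN with a last base other than G, and the loop is given in capitals. Sequences are written 5′ to 3′ on the strand of the gene and were read from GRCh38 with GENCODE 44 transcripts.
FTL, 5′ UTR, chr19:48965335-48965363, plus strand: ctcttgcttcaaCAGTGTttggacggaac
FTH1, 5′ UTR, chr11:61967574-61967602, minus strand: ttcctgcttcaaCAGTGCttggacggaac
SLC40A1, 5′ UTR, chr2:189580661-189580689, minus strand: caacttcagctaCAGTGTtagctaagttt
TFRC, 3′ UTR, chr3:196051029-196051057, minus strand: atttatcagtgaCAGAGTtcactataaat
TFRC, 3′ UTR, chr3:196050979-196051007, minus strand: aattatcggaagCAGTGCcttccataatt
TFRC, 3′ UTR, chr3:196050575-196050603, minus strand: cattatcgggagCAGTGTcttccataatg
TFRC, 3′ UTR, chr3:196050510-196050538, minus strand: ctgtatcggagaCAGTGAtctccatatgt
TFRC, 3′ UTR, chr3:196050463-196050491, minus strand: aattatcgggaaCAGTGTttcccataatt

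FTL, FTH1 and SLC40A1 held 1 match each in the 5′ UTR, and TFRC held 5 in the 3′ UTR. Among 20046 canonical protein-coding transcripts, 24 (0.12%) had a match in the 5′ UTR and 178 (0.888%) had one in the 3′ UTR. The match is a description of the sequence, and the libraries measure RNA levels, not translation.

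Depth was 15941255 to 33866644 expected counts per library, with a median of 23833237. Of 10 epithelial markers, 9 were above 1 CPM (the library-scaled unit of edgeR, with TMM factors) in every library, and CDX1 was as low as 0.923 CPM. Of 16 markers of leukocytes, fibroblasts, endothelium, erythroid cells, hepatocytes and astrocytes, 13 were below 1 CPM in every library, and the highest value was 4.39 CPM. High-dose replicate 2 stood apart from its group. Its log2 difference from the other high-dose libraries had an SD of 0.502 over 10626 genes, compared with 0.102 to 0.293 in the other 11 libraries, and values without it are given for the results it moved most. In bulk libraries, fewer cells of a type and less RNA per cell cannot be told apart.

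HMOX1, the inducible heme oxygenase (ENSG00000100292, GRCh38 chr22:35380361-35394214), was upregulated at the high dose. Its expression was 9.69, 8.30 and 9.32 CPM in vehicle replicates 1 to 3, and 17.2, 22.4 and 18.4 CPM at the high dose. Every high-dose library lay above every vehicle library, and the lowest of them was above every library of the other 3 groups. At the medium dose the libraries were at 10.4, 10.7 and 11.1 CPM, and at the low dose they were at 8.69, 8.70 and 7.61 CPM. The log2 fold change at the high dose was 1.09 (SE 0.11, 95% interval 0.85 to 1.32, adjusted p = 9.38e-05 by edgeR). HMOX1 was the only 1 of the 10 genes that was a DEG at the high dose, with an adjusted p under 0.05 and more than a 1.5-fold change, whereas 2.93% of all genes tested did. Against the medium dose it was 0.84 on the log2 scale (adjusted p = 0.00265), also a DEG, as were 0.488% of all genes tested. At the medium dose against vehicle, the log2 fold change was 0.24 (95% interval 0.00 to 0.49, adjusted p = 0.418), and no change was called. Without high-dose replicate 2, the high-dose value was 0.99 (adjusted p = 8.14e-07).

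**Figure D1:**
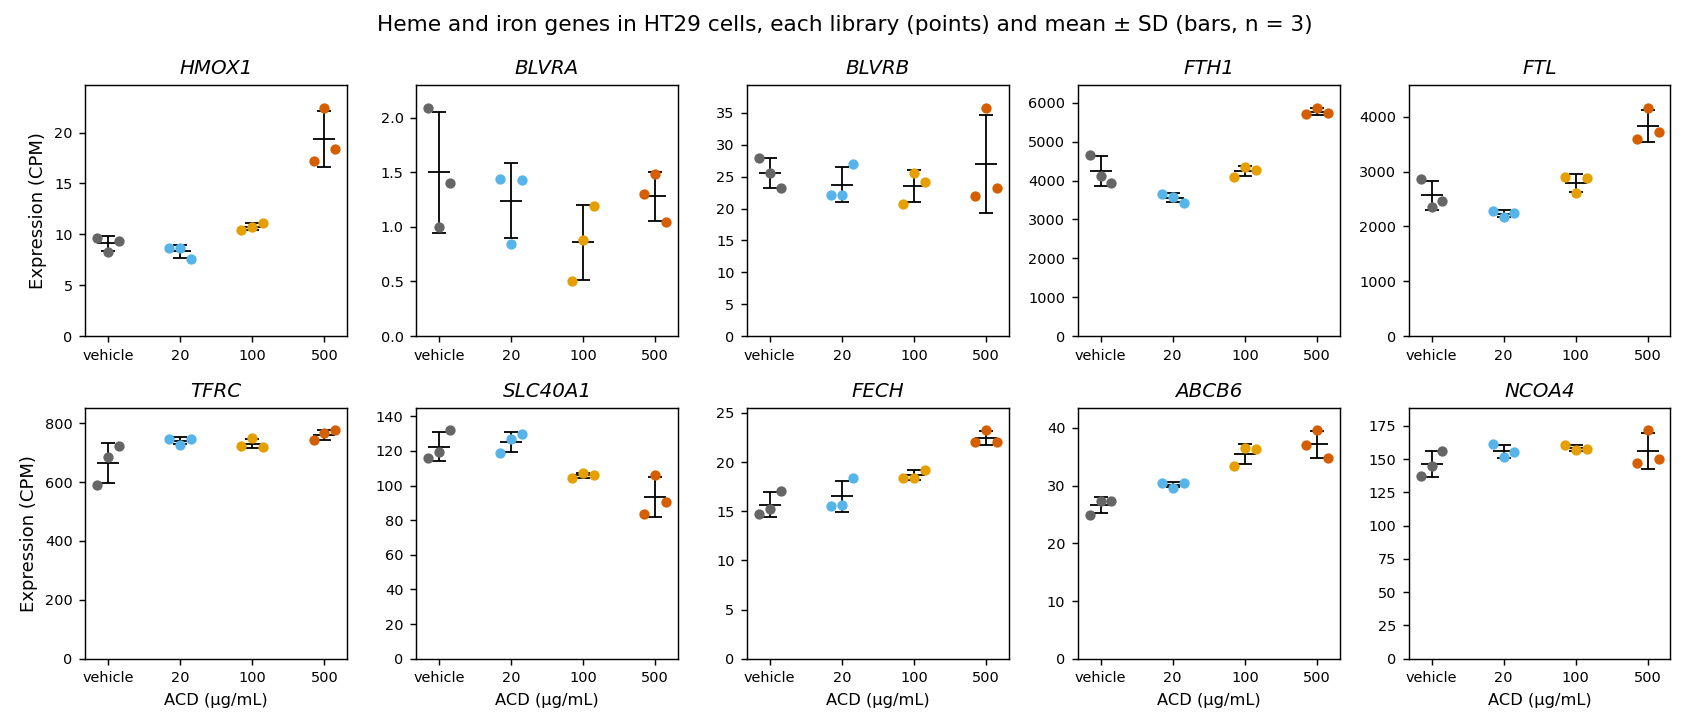
Expression of the 10 genes in CPM (y axis, from 0) in each library (points) at vehicle, 20, 100 and 500 µg/mL (x axis), with the mean ± SD of 3 libraries. HMOX1, FTH1, FTL, FECH, ABCB6 and TFRC were higher at 500 µg/mL than in every vehicle library (TFRC without passing the test), SLC40A1 was lower, and the BLVRA, BLVRB and NCOA4 libraries overlapped.

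HMOX2, the constitutive heme oxygenase, showed no such pattern. It was at 67.5, 56.6 and 55.2 CPM in vehicle and at 52.5, 69.02 and 56.4 CPM at the high dose, with a log2 fold change of −0.01 (95% interval −0.24 to 0.21, adjusted p = 0.967). HMOX1 therefore took a larger share of the summed CPM of both oxygenases. The share was 12.5% to 14.4% in vehicle, 12.1% to 14.3% at the low dose, 15.5% to 15.9% at the medium dose and 24.5% to 24.7% at the high dose. The 3 high-dose shares lay close together, although the level of both genes was highest in replicate 2. Per kilobase of the canonical transcript, HMOX1 had 5.86 CPM in vehicle and 12.5 CPM at the high dose, whereas HMOX2 had 35.7 and 35.4 CPM, so HMOX2 remained the more abundant of both RNAs.

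The biliverdin reductases, which act on the product of heme oxygenase, were not called at any dose. BLVRB, which also reduces flavins, was at 28.0, 25.5 and 23.2 CPM in vehicle and at 21.9, 35.8 and 23.2 CPM at the high dose, and the groups overlapped. Its log2 fold change was 0.06 (95% interval −0.30 to 0.43, adjusted p = 0.887), and without high-dose replicate 2 it was −0.17 (adjusted p = 0.261). BLVRA, the main biliverdin reductase of adult tissue, was at 2.09, 1.00 and 1.41 CPM in vehicle and at 1.31, 1.49 and 1.05 CPM at the high dose. At the low dose it was at 1.44, 0.846 and 1.43 CPM and at the medium dose at 0.505, 0.881 and 1.19 CPM, and each dose overlapped with vehicle. It had 11 to 42 counts per library. The log2 difference was −0.22 at the high dose (95% interval −0.95 to 0.52, adjusted p = 0.789) and −0.74 at the medium dose (95% interval −1.49 to 0.01, adjusted p = 0.435), and neither passed.

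Both ferritin chains were among the most abundant RNAs of the cells and were higher at the high dose. FTH1, the heavy chain with the ferroxidase activity (ENSG00000167996, GRCh38 chr11:61959718-61967634), was at 4667, 4125 and 3934 CPM in vehicle and at 5715, 5873 and 5731 CPM at the high dose. FTL, the light chain that promotes the mineral core (ENSG00000087086, GRCh38 chr19:48965309-48966879), was at 2875, 2363 and 2461 CPM in vehicle and at 3595, 4167 and 3734 CPM at the high dose. For both chains every high-dose library lay above every library of the other 3 groups. FTH1 rose by 0.44 on the log2 scale (SE 0.09, adjusted p = 0.0111) and FTL by 0.58 (SE 0.10, adjusted p = 0.00443), a 1.49-fold change just under the fold threshold of a DEG. FTL crossed that threshold when any 1 of 8 libraries was left out, at 0.59 to 0.67. Without high-dose replicate 2 it was 0.515 (adjusted p = 0.000223 by edgeR), the lowest value with any 1 library left out. Against the medium dose, FTH1 was higher by 0.45 (adjusted p = 0.0385), and FTL differed by 0.46 (adjusted p = 0.0637), which did not pass. In an edgeR fit of vehicle and high-dose libraries only, neither chain passed against vehicle (adjusted p = 0.2 for FTH1 and 0.123 for FTL). The call of FTH1 at the high dose was also lost without vehicle replicate 2 (0.43, adjusted p = 0.0609) and without vehicle replicate 3 (0.40, adjusted p = 0.0526). Over both chains, the summed expression was 6808 ± 636 CPM (SD, n = 3) in vehicle and 9605 ± 385 CPM after 500 µg/mL, which is 0.681% and 0.960% of the scaled library.

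At the low dose the ferritin libraries lay on the other side of vehicle. FTH1 was at 3657, 3577 and 3433 CPM and FTL at 2280, 2170 and 2255 CPM, all below every vehicle library, where 21.0% of all genes tested had groups that did not overlap. The log2 differences were −0.25 for FTH1 (95% interval −0.45 to −0.06, adjusted p = 0.46) and −0.20 for FTL (95% interval −0.41 to 0.02, adjusted p = 0.666). No change was called by edgeR, whereas DESeq2 on all libraries gave FTH1 an adjusted p of 0.0339. At the medium dose FTH1 was at 4094, 4358 and 4263 CPM and FTL at 2897, 2611 and 2878 CPM, within or close to the vehicle range. The ratio of FTL to FTH1 was 0.573 to 0.626 in vehicle, 0.607 to 0.657 at the low dose, 0.599 to 0.708 at the medium dose and 0.629 to 0.710 at the high dose, and the low-dose and medium-dose ranges overlapped with both of the others.

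Ferritin genes have many processed copies in the genome, to which reads may be assigned. Counts of the FTH1 pseudogenes summed to 0.161% to 0.235% of those of FTH1, and counts of the FTL pseudogenes to 0.0569% to 0.101% of those of FTL. FTH1 also shares exonic bases with BEST1 on the opposite strand. The paper names a directional library kit, but the strand setting of the counting is not given in the sources used here. Reads of the pair may therefore not have been told apart.

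NCOA4, the receptor that carries ferritin to lysosomes so that its iron is released, was at 137, 145 and 156 CPM in vehicle and at 147, 171 and 150 CPM at the high dose. The groups overlapped, and the log2 fold change was 0.09 (95% interval −0.07 to 0.26, adjusted p = 0.542). Without high-dose replicate 2 it was 0.02 (adjusted p = 0.818), and with any other library left out it was at most 0.16.

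Of the membrane proteins that move iron, the exporter was lower and the importer was not called. SLC40A1, ferroportin (ENSG00000138449, GRCh38 chr2:189560590-189583758), was at 116, 119 and 132 CPM in vehicle, 119, 127 and 130 CPM at the low dose, 104, 107 and 106 CPM at the medium dose and 83.8, 106 and 90.2 CPM at the high dose. Medium-dose and high-dose libraries all lay below the vehicle libraries. SLC40A1 fell by 0.39 on the log2 scale at the high dose (SE 0.09, adjusted p = 0.0224), whereas at the medium dose the value was −0.21 (95% interval −0.40 to −0.02, adjusted p = 0.384). This call held in 14 of 21 alternatives, the fewest of the 6 high-dose calls. The high-dose adjusted p was 0.221 in edgeR on vehicle and high-dose libraries alone, and it was 0.0764 without vehicle replicate 2, 0.106 without vehicle replicate 3, 0.0503 without medium replicate 3, 0.0771 without high replicate 1 and 0.0794 without high replicate 3. Without high-dose replicate 2 the value was −0.49 (adjusted p = 5.55e-05), and the medium-dose value passed (adjusted p = 0.0376). The medium-dose value itself stayed at −0.21. In that fit, medium-dose DEGs among all genes also rose, from 104 to 249.

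TFRC, the transferrin receptor (ENSG00000072274, GRCh38 chr3:196012511-196082153), was at 589, 685 and 721 CPM in vehicle, 748, 727 and 747 CPM at the low dose, 723, 749 and 721 CPM at the medium dose and 742, 766 and 776 CPM at the high dose. The low-dose and high-dose libraries all lay above vehicle, and vehicle replicate 1 was the lowest of all 12. The log2 difference at the high dose was 0.19 (95% interval 0.02 to 0.37, adjusted p = 0.201).

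FECH and ABCB6 act on the porphyrin side. FECH, ferrochelatase of the mitochondrial inner membrane (ENSG00000066926, GRCh38 chr18:57544377-57586732), was at 14.7, 15.2 and 17.1 CPM in vehicle and at 22.0, 23.2 and 22.1 CPM at the high dose. It was at 15.6, 15.7 and 18.4 CPM at the low dose and at 18.4, 18.3 and 19.2 CPM at the medium dose. The medium-dose libraries lay between vehicle and high dose, with no overlap with either. FECH rose by 0.52 on the log2 scale at the high dose (SE 0.09, adjusted p = 0.00386), and the medium-dose value was 0.25 (95% interval 0.06 to 0.44, adjusted p = 0.266). The high-dose call was lost in edgeR on vehicle and high-dose libraries alone (adjusted p = 0.0741).

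ABCB6, an ATP-driven transporter of porphyrins (ENSG00000115657, GRCh38 chr2:219209772-219218994), was the only 1 of the 10 that passed at the medium dose. Its expression was 24.99, 27.4 and 27.4 CPM in vehicle, 30.4, 29.7 and 30.4 CPM at the low dose, 33.4, 36.6 and 36.4 CPM at the medium dose and 37.1, 39.6 and 34.8 CPM at the high dose. All treated libraries lay above the vehicle libraries, and the medium and high doses overlapped. ABCB6 rose by 0.41 on the log2 scale at the medium dose (SE 0.07, adjusted p = 0.0194) and by 0.48 at the high dose (SE 0.07, adjusted p = 0.00229), whereas the low-dose value was 0.18 (95% interval 0.02 to 0.34, adjusted p = 0.586). The high-dose call was lost in edgeR on those libraries and vehicle alone (adjusted p = 0.0822). The medium-dose call was lost without vehicle replicate 1, 2 or 3 (adjusted p = 0.0841, 0.075 and 0.0612) and without medium replicate 2 or 3 (adjusted p = 0.106 and 0.113).

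A promoter motif is shown for these genes because NRF2 and BACH1 bind the antioxidant response element. The core TGACNNNGC was searched on both strands (GCNNNGTCA on the other) from 250 bases before to 50 after each RefSeq start on GRCh38.p14. Entries were found for 8 of the 10 genes, all except HMOX1 and FTH1, with 9 entries in total. Of these genes, 3 had a match at any entry, while 13.3% of 35116 promoters had one. The first count is of genes and the second of single promoter entries. The matched bases are in capitals.
ABCB6, chr2:219219092-219219120, minus strand: cctgggcacgTGACCAAGCcggctctgct
FECH, chr18:57586722-57586750, minus strand: ccgggagggcGCGAGGTCAgggggctggg

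The match of ABCB6 lay 152 bases before the start and that of FECH 38 bases before it, and the remaining match was at an alternative start of NCOA4. These letters say nothing of whether a factor was bound.

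**Figure D2:**
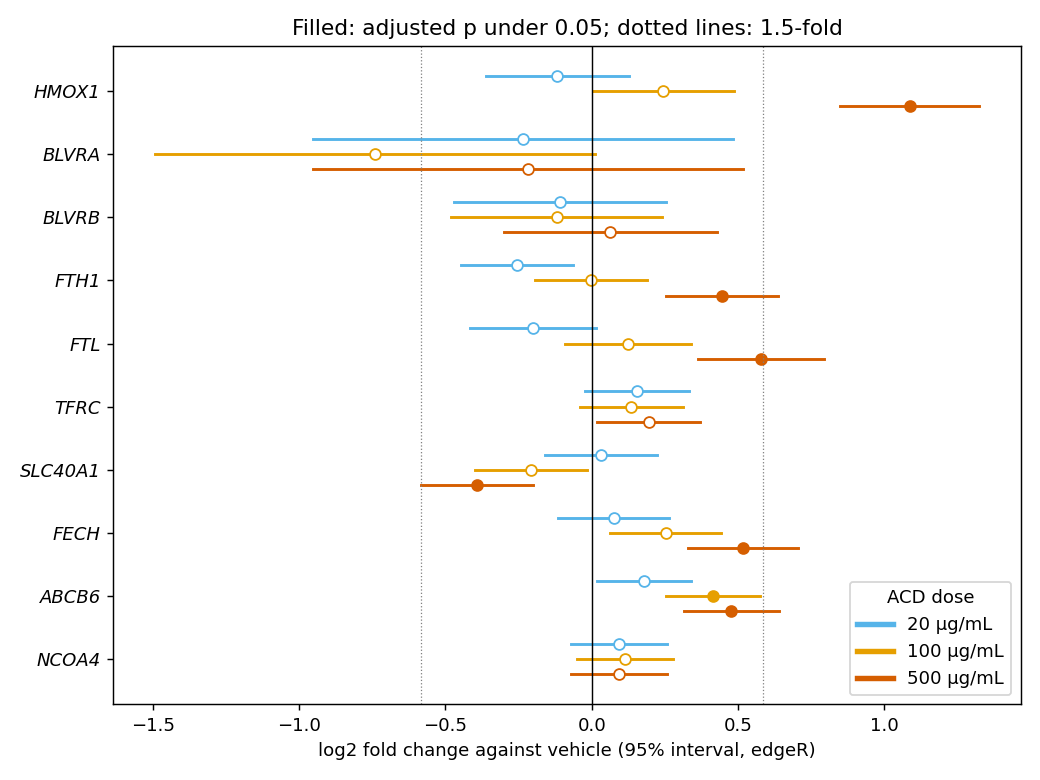
Log2 fold change against vehicle (x axis) with its 95% interval for each of the 10 genes (y axis) at 20, 100 and 500 µg/mL, where filled points had an adjusted p under 0.05 and dotted lines mark a fold change of 1.5. At 500 µg/mL 6 points are filled, at 100 µg/mL only ABCB6 is, and at 20 µg/mL none is.

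Over the 10 genes, 6 passed an adjusted p of 0.05 at the high dose, 5 higher and 1 lower, whereas 5.77% of all genes tested passed (2.82% higher and 2.95% lower). Since the 10 were chosen with earlier results of these data known, their counts and median beside all genes are only a description. The libraries did not overlap with vehicle for 7 of the 10 genes at 500 µg/mL (22.0% of all genes tested), for 5 at 100 µg/mL (28.7%) and for 4 at 20 µg/mL (21.0%). In an edgeR fit of high-dose and vehicle libraries only, HMOX1 was the 1 gene of the 10 that passed, compared with 1.21% of all genes in that fit, and with DESeq2 on all libraries 6 passed, compared with 8.46%. At the medium dose 1 of 10 passed, compared with 1.01% of all genes tested. At the low dose none of the genes passed edgeR's test (0 of 10), compared with 0.124% of all genes tested. By the same edgeR test, FTH1 (unadjusted p = 0.0133) and ABCB6 (unadjusted p = 0.0315) were under 0.05 before adjustment, as were 7.95% of all genes tested. From low to medium edgeR passed 0 of 10 (0.143% of all genes). Of the 10, 5 were under 0.05 before adjustment (HMOX1, FTH1, FTL, SLC40A1 and ABCB6), compared with 3.52% of all genes. DESeq2 on all libraries passed 1 of the 10, compared with 0.436% of all genes. A fit by edgeR on the libraries of both doses alone passed 3, compared with 1.02% of all genes in that fit. From medium to high, 2 of 10 passed (0.891% of all genes). The median log2 fold change at the high dose was 0.32 over the 10 genes and 0.005 over all genes. All doses were compared with the same vehicle libraries, so the comparisons with vehicle are not independent of each other.

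A trend with the dose rank passed for 5 of the 10 genes, compared with 5.74% of all genes tested. The slope per dose step on the log2 scale was 0.37 for HMOX1 (adjusted p = 0.00302), 0.20 for FTL (adjusted p = 0.0233), 0.17 for FECH (adjusted p = 0.00216), 0.17 for ABCB6 (adjusted p = 0.000955) and −0.14 for SLC40A1 (adjusted p = 0.0143). FTH1 had a slope of 0.16 (adjusted p = 0.0738). The count was 3 without high replicate 1 or without high replicate 3. Among all genes, the trend passed for 512 of 15709 and 452 of 15673 in these fits, compared with 882 of 15374 with all libraries. At the low dose, the mean level was 91.6% of vehicle for HMOX1, 83.8% for FTH1 and 87.1% for FTL, compared with 113.4% for ABCB6.

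**Figure D3:**
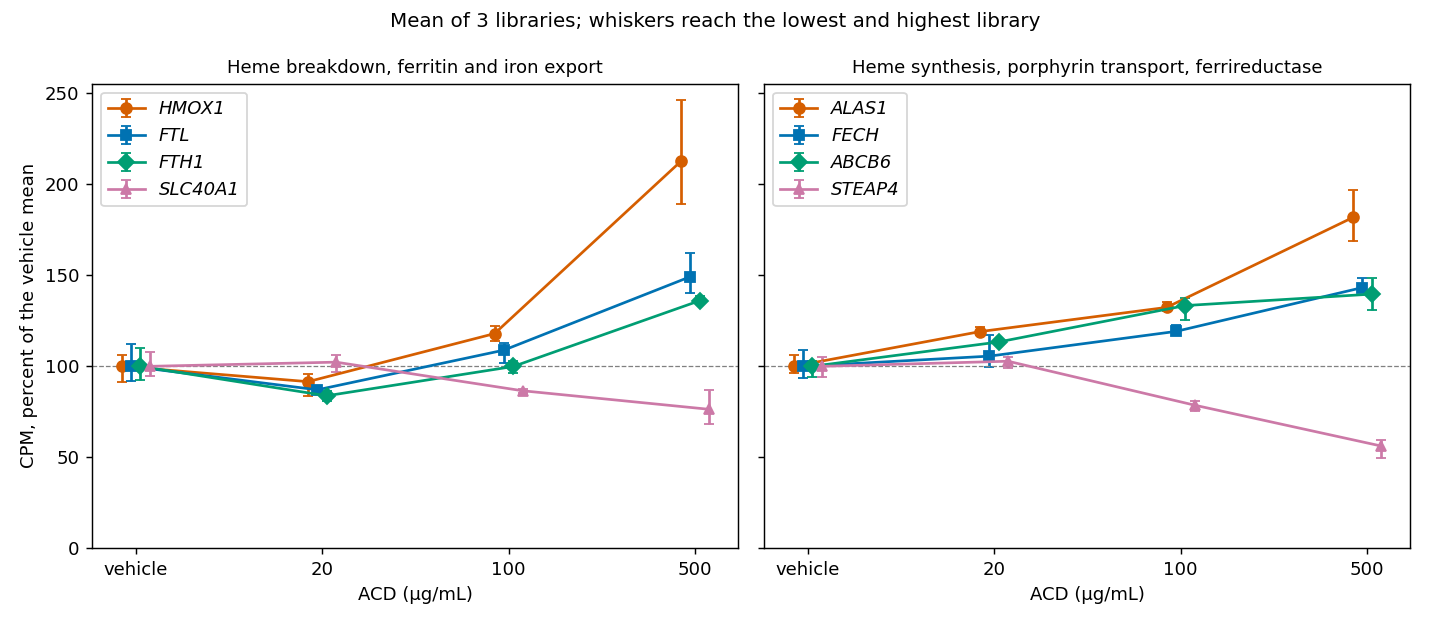
Mean CPM as a percent of the vehicle mean (y axis) at each dose (x axis), with whiskers from the lowest to the highest of 3 libraries. HMOX1 reached 212.8% and FTL 149.3% at 500 µg/mL, SLC40A1 was at 76.4% and STEAP4 at 56.2%, and ALAS1 was above vehicle at every dose.

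Of 71 other genes of heme and iron handling, 63 were expressed enough to be tested, and the 8 that were not included the erythroid ALAS2, transferrin (TF) and hepcidin (HAMP). At the high dose 5 of the 63 passed (7.94%), 4 higher and 1 lower, compared with 5.77% of all genes tested, and 2 of these were DEGs, compared with 2.93%. Both shares were close to those of all genes. The median log2 fold change was 0.06 over the 63, of which 65.1% were above 0, compared with 51% of all genes. At the medium dose 2 passed (3.17%, compared with 1.01%). At the low dose edgeR passed 0 (0.124% of all genes), with 2 at an unadjusted p under 0.05 (7.95% of all genes). DESeq2 on all libraries passed 1, compared with 0.709% of all genes.

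Of 7 heme synthesis genes tested, 1 passed at the high dose, compared with 5.77% of all genes tested. ALAS1, which makes aminolevulinate and is rate-limiting outside erythroid cells, was at 43.9, 44.4 and 48.6 CPM in vehicle, 53.9, 53.5 and 55.5 CPM at the low dose, 59.4, 60.0 and 61.7 CPM at the medium dose and 77.0, 90.0 and 81.9 CPM at the high dose. The 4 groups did not overlap with each other. ALAS1 rose by 0.86 on the log2 scale at the high dose (SE 0.07, adjusted p = 2.93e-05) and by 0.40 at the medium dose (adjusted p = 0.0195), and the low-dose value was 0.25 (adjusted p = 0.312). The medium-dose call was lost without vehicle replicate 1 or 2 (adjusted p = 0.0877 and 0.13) and without medium replicate 1, 2 or 3 (adjusted p = 0.081, 0.0911 and 0.114), and the low-dose value passed without high replicate 2 (adjusted p = 0.0255). Among all genes, low-dose DEGs also rose without high replicate 2, from 17 to 109. None of the other 6 enzymes tested on the way to protoporphyrin passed at any dose.

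Among genes of iron uptake, reduction and export, 2 of 11 passed at the high dose, compared with 5.77% of all genes tested. STEAP4, a metalloreductase that reduces iron and copper, was at 18.7, 20.1 and 21.0 CPM in vehicle, 20.8, 19.7 and 20.9 CPM at the low dose, 15.8, 15.01 and 16.2 CPM at the medium dose and 11.9, 9.91 and 11.8 CPM at the high dose. It fell by 0.82 on the log2 scale at the high dose (SE 0.09, adjusted p = 0.000143) and was also lower at the high than at the medium dose (−0.47, adjusted p = 0.0243). The medium-dose value of −0.35 did not pass (adjusted p = 0.0818), but it did without high replicate 2 (0.0049), with DESeq2 on all libraries (0.0109) and on vehicle and medium-dose libraries alone with DESeq2 (0.0244) and edgeR (0.0222). LCN2, a secreted siderophore-binding protein, was at 92.9, 82.8 and 82.0 CPM in vehicle and at 104, 117 and 108 CPM at the high dose. It rose by 0.35 at the high dose (adjusted p = 0.0264) and by 0.44 at the medium dose (adjusted p = 0.0243), and the low-dose value of 0.38 did not pass by edgeR (adjusted p = 0.122) but passed by DESeq2 on all libraries (adjusted p = 0.00332) and in an edgeR fit of low-dose and vehicle libraries only (0.0291). LCN2 was no longer called at the high dose in an edgeR fit of high-dose and vehicle libraries only (adjusted p = 0.186), or without vehicle replicate 2 or 3 or high replicate 3 (adjusted p = 0.113, 0.0919 and 0.0638) and at the medium dose without vehicle replicate 2 or 3 or medium replicate 1 or 3 (adjusted p = 0.148, 0.111, 0.123 and 0.138). Without high replicate 2 the low-dose value passed (adjusted p = 0.00472). In that fit, DEGs among all genes also rose, from 17 to 109 at the low dose and from 104 to 249 at the medium dose.

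In the remaining lists, 1 of 20 mitochondrial iron and iron-sulfur cluster genes and 1 of 6 regulators at HMOX1 passed at the high dose, compared with 5.77% of all genes tested. HSPA9, the mitochondrial chaperone that helps transfer iron-sulfur clusters, was at 366, 368 and 365 CPM in vehicle and at 439, 451 and 427 CPM at the high dose, a log2 fold change of 0.26 (adjusted p = 0.0385). MAFF, a small MAF protein that pairs with NRF2 or BACH1, was at 13.4, 13.5 and 11.8 CPM in vehicle and at 16.7, 15.9 and 15.5 CPM at the high dose, a log2 fold change of 0.32 (adjusted p = 0.0452). Both calls were close to the threshold. HSPA9 was lost when any 1 library other than low replicate 1, low replicate 3 or high replicate 2 was left out, and MAFF when any other than low replicate 1 or high replicate 2 was, with adjusted p of up to 0.119 and 0.135. In an edgeR fit of high-dose and vehicle libraries only, the adjusted p was 0.312 for HSPA9 and 0.271 for MAFF.

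The most abundant genes of the lists not yet named were not called at any dose. NFE2L2, which encodes NRF2, was at 126, 117 and 123 CPM in vehicle and at 138, 157 and 134 CPM at the high dose, a log2 difference of 0.23 (adjusted p = 0.138). IREB2, an iron regulatory protein, was at 125, 143 and 149 CPM and at 147, 114 and 156 CPM, a difference of 0.00 (95% interval −0.23 to 0.23). PCBP2, an iron chaperone that loads ferritin, differed by 0.00 (95% interval −0.14 to 0.14), and PGRMC1, a heme-binding membrane protein, by 0.05 (95% interval −0.19 to 0.28).

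**Figure D4:**
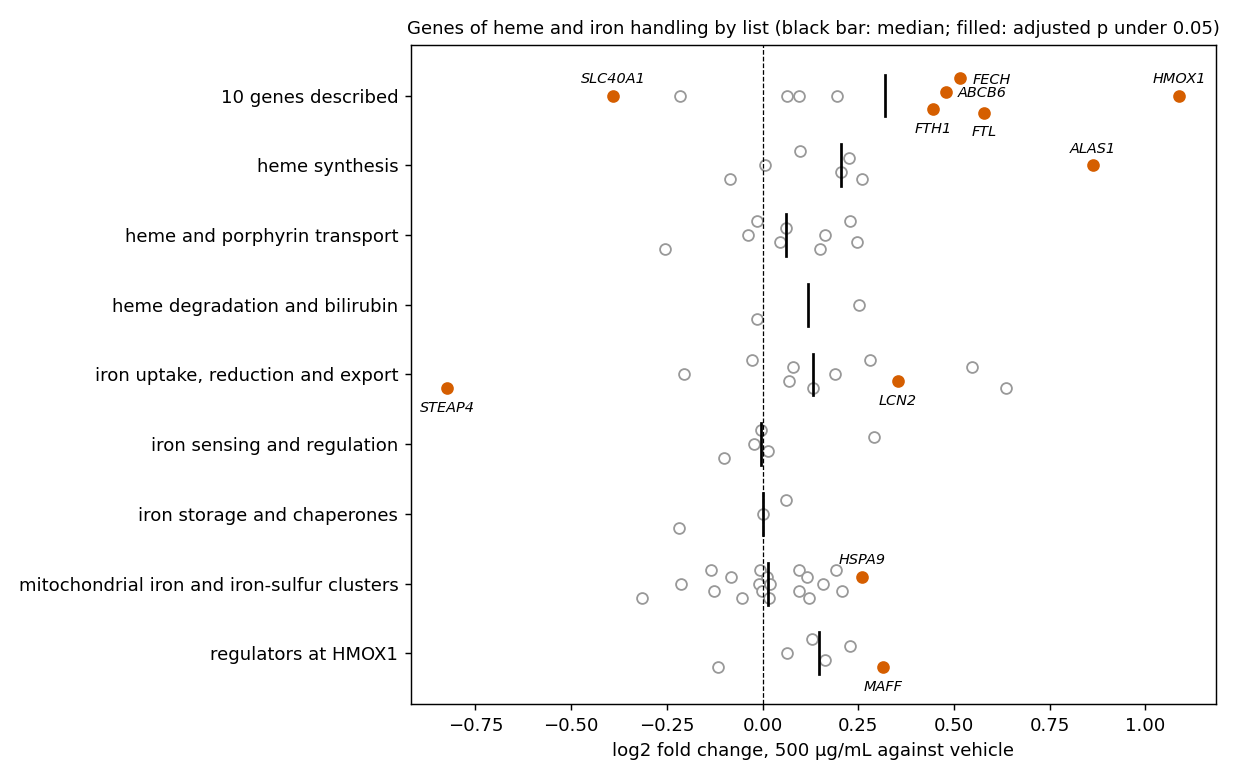
Log2 fold change at 500 µg/mL against vehicle (x axis) of the 10 genes and of the tested genes in each list (y axis), where filled points had an adjusted p under 0.05 and black bars are medians. The median of the 10 genes was 0.32 and that of heme synthesis 0.20, while the other lists had medians between −0.003 and 0.146.

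HMOX1 was the only member called as a DEG, and the genes most like it were sought over the 12 libraries among 9376 genes with a mean of at least 10 CPM. The highest Pearson correlations of log2 CPM were with the mitochondrial ribosomal RNAs MT-RNR2 (0.979) and MT-RNR1 (0.977) and with IFRD1 (0.976). These points share libraries and group differences, so the values are a description. MT-RNR1 made up 0.127% to 0.138% of the counts in vehicle and 2.73% to 2.89% at the high dose, and the share of chromosome M was 8.74% to 10.1% in vehicle and 14.0% to 16.6% at the high dose. With library sizes taken without chromosome M, no call of the 10 genes changed. Within the set, log2 CPM of HMOX1 correlated with that of FTL (0.963), FTH1 (0.939) and FECH (0.865) and inversely with SLC40A1 (−0.78), over the same 12 libraries.

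**Figure D5:**
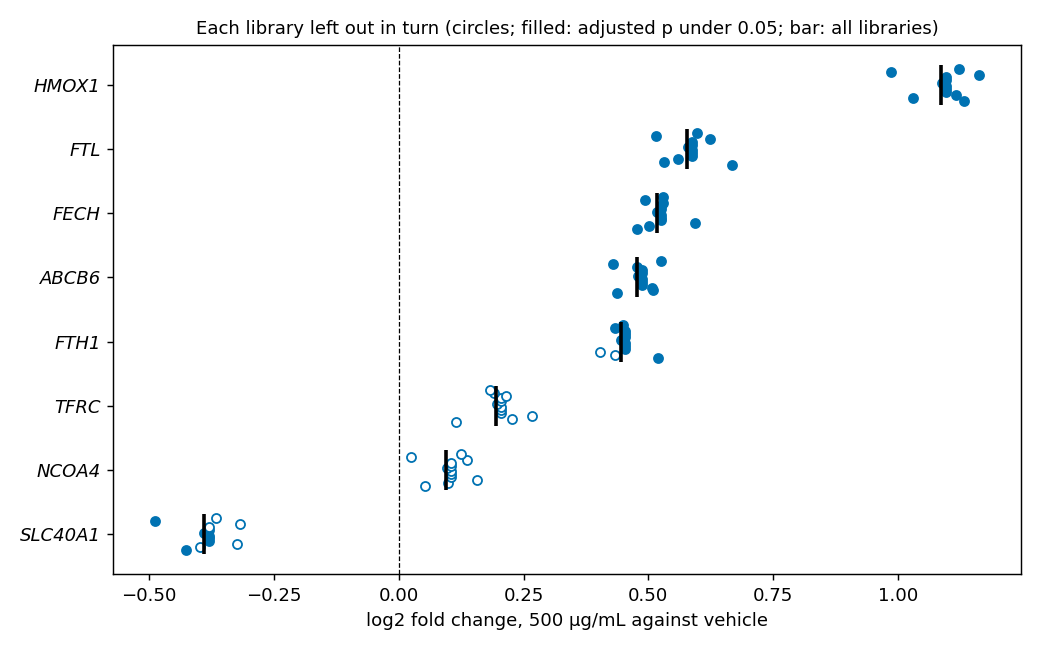
Log2 fold change at 500 µg/mL against vehicle (x axis) of 8 genes when each of the 12 libraries is left out in turn (circles, filled where the adjusted p was under 0.05), with the value of all libraries as a bar. HMOX1, FTL, FECH and ABCB6 stay filled throughout, FTH1 is open for 2 libraries and SLC40A1 for 5.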

How the data were processed

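The authors sequenced RNA of 12 HT29 libraries as 100 bp pairs and, by their methods, trimmed, aligned and counted the reads with Trim Galore, STAR and RSEM on the GRCh38.84 annotation (the submitters' processing notes give Trim Galore 0.6.5, STAR 2.7.3a and RSEM 1.3.3). The deposited values are RSEM expected counts per Ensembl ID, not normalized. They were rounded to whole numbers here, filtered with filterByExpr, scaled by TMM and tested in all 12 libraries with edgeR 4.0.16 in R 4.3.3 (robust quasi-likelihood F test), with group as the only term and Benjamini-Hochberg adjustment over 15374 genes. CPM used TMM library sizes. Intervals are 95% t intervals. DESeq2 1.42.0, other filters, scalings and left-out libraries were alternatives. The pipeline was tested on simulated data, where edgeR called 177 of 200 changed genes and 4 unchanged genes at the high dose. The changes planted at that dose were larger than most of those described here. The simulation therefore does not show how well smaller changes are found. The 10 genes and the lists were chosen with earlier results of these data known. Genes named besides the 10 had an adjusted p under 0.05 at any dose against vehicle, were the most abundant of their list, or were the 3 most like HMOX1. CDX1, ALAS2, TF, HAMP and BEST1 were named after their values were seen.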

Additional observations from a re-analysis of the deposited data

How the results depend on the processing

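With 45 values of single genes recomputed under 21 alternatives (945 values), 852 kept their direction and their side of the threshold, 61 lost the call and 11 gained it. In 21 the direction changed, none of them called before or after. For FTH1 at the medium dose, −0.001 with all libraries, the value was 0.003 with DESeq2 on all libraries or its size factors in edgeR, 0.002 with DESeq2 on the compared libraries, 0.004 without chromosome M, 0.015 without a filter, 0.001 with the replicate block and −0.046 to 0.073 with single libraries left out. The other direction changes came with single libraries left out, where BLVRA ranged from −0.461 to 0.075 at the high dose and from −0.489 to 0.057 at the low dose, BLVRB from −0.173 to 0.19 at the high dose, and at the low dose SLC40A1 from −0.004 to 0.089, FECH from −0.004 to 0.142, STEAP4 from −0.004 to 0.074 and MAFF from −0.014 to 0.079. The causes were not tested. HMOX1, ALAS1 and STEAP4 at the high dose passed in all 21. In edgeR fitted on vehicle and high-dose libraries alone, FTH1 (adjusted p = 0.2), FTL (0.123), SLC40A1 (0.221), FECH (0.0741) and ABCB6 (0.0822) did not pass, and in DESeq2 on the same libraries SLC40A1 did not (0.093). With edgeR on medium-dose and high-dose libraries alone, 0 of the 10 genes were DEGs from medium to high, compared with 10 of all 14764 genes in that fit. With no minimum fold change, the genes called among the 10 (adjusted p under 0.05 alone) were 6 at the high dose, 1 at the medium dose and 2 from medium to high, and among the other genes of heme and iron handling 5 at the high dose and 2 at the medium dose. With each library left out in turn, the DEGs among the 10 genes at the high dose ranged from 1 to 2. FTL crossed a fold change of 1.5 without vehicle replicate 1, any low replicate, medium replicate 2 or 3, or high replicate 1 or 3. FECH crossed it without vehicle replicate 3. The dose trend called 3 to 6. Over all genes, these fits gave 310 to 768 high-dose DEGs (451 with all libraries), and the trend called 452 to 2744 (882 with all libraries). No pairing by replicate number was used in the main fit. The correlation of deviations in 18 same-numbered pairs ran from −0.495 to 0.372 and was above 0.1 in 5. In 36 other pairs it ran from −0.536 to 0.541 and was above 0.1 in 14. Deviations were taken from means of 3 libraries, and high-dose replicate 2 stood apart. These values therefore cannot show whether same-numbered libraries shared a culture or batch. With the replicate number as a block, all 6 genes still had an adjusted p under 0.05 at the high dose and 1 was a DEG, as without it. Over all genes, 379 were high-dose DEGs with the block, compared with 451 without it. With the block, ABCB6 at the medium dose had an adjusted p of 0.0518. LCN2 (0.0626 and 0.0791 at the high and medium dose), HSPA9 (0.0933) and MAFF (0.0687) lost their calls.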
